A study of Rattus norvegicus with 18 samples.

Results

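Myelin is the lipid-rich sheath that oligodendrocytes wrap around axons, and its messenger RNAs are among those by which oligodendrocytes are recognised in a piece of brain tissue. The 9 genes described here were given by name: Mbp, Mog, Mag, Mobp, Cnp, Cldn11, Ugt8, Opalin and Ermn. All 9 were found among the 38445 genes counted in the dorsal hippocampus of rats, and all 9 were among the 17853 genes expressed highly enough to be tested (above 0.5 CPM, that is counts scaled to the size of the library, in at least 1 rat).

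The animals were adult male wild-type Sprague Dawley rats kept on Lieber-DeCarli liquid diet, with nothing else to eat or drink. Of the 18 rats, 6 stayed on the control diet for 16 days (control), 6 were kept on diet with 9% ethanol for 16 days and were not withdrawn (ethanol), and 6 had 15 days of the 9% diet and then 24 h of control diet (withdrawal). The study's methods state that rats were pair fed and that ethanol was introduced gradually before the 9% diet. RNA from each rat was sequenced as 1 stranded, paired-end library, and the total count per rat ranged from 30873228 to 42679748. The dorsal hippocampus is mostly grey matter with white matter tracts at its borders.

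Oligodendrocytes arise from dividing precursors, pass through a short-lived newly formed stage, and then switch on the genes of the sheath together under factors that include SOX10, OLIG2 and MYRF. In compact myelin the cytoplasmic faces of the membrane are held together by basic proteins, while other proteins sit on the outermost lamella, on the membrane next to the axon, or in the channels of cytoplasm that stay open. The sheath membrane is rich in galactolipids, made by enzymes of the oligodendrocyte. Long use of alcohol has been tied to loss of white matter in the brain.

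The promoters of 3 of the genes are shown because a binding motif of MYRF, the factor that turns on myelin genes in maturing oligodendrocytes, was found in them, and because Cnp and Opalin take part in most of the ratios described further on. They are the 250 bases before the transcription start in the RefSeq table of assembly GRCr8, written 5′ to 3′ on the strand of the gene. Capitals mark the MYRF motif and the SOX motifs named below, on either strand, so that a motif on the opposite strand appears as its reverse complement.
Cnp, chr10:86011254-86011503, plus strand: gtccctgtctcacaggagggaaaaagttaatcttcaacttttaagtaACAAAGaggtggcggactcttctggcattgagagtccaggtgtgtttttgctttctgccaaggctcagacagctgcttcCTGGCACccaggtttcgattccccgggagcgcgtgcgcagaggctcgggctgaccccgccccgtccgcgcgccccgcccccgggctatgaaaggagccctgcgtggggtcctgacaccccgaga
Opalin, chr1:249858191-249858440, minus strand: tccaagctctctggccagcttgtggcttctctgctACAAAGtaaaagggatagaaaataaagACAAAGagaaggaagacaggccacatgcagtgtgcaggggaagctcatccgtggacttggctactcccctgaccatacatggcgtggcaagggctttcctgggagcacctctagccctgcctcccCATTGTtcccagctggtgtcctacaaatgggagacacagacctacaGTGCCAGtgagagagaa
Mag, chr1:95291045-95291294, minus strand: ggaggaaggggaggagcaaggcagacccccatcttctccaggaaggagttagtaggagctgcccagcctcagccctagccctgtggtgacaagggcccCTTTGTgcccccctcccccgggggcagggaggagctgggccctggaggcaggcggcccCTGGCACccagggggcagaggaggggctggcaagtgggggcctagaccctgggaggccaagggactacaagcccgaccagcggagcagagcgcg
The table held promoters for 7 of the 9 genes, with 8 entries in all, and none for Mog and Ermn. The MYRF motif, CTGGCAC, was present in Cnp, Mag and Opalin, 3 of these 7 genes, and in 3.78% of all 33469 promoters of the same length. In Opalin it lay on the opposite strand and began 17 bases before the start, in Mag 94 and in Cnp 124 bases before it. The first SOX motif, ACAAAG, was present in 5 of the 7 genes (Cnp, Mag, Mbp, Mobp and Opalin) and in 16.3% of all promoters, and in Mobp it occurred 8 times on the opposite strand. The second, ACAATG, was present in Mbp and Opalin and in 11.1% of all promoters. The E box CAGCTG was found in Cnp, Mbp and Opalin (11.97% of all promoters), and TATAAA in none of the 7 (12.9% of all promoters). No capital stretches overlap in the promoters shown.

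The 9 genes made up between 0.924% and 1.41% of all counts of a rat (median 1.10%), and Mbp alone between 0.509% and 0.816%. Set against the length of their exons, their levels spread widely. Mbp, myelin basic protein, which binds the cytoplasmic faces of the membrane together, had 1848 ± 239 CPM per kb (SD, n = 18 rats). Mobp, another small basic protein of compact myelin, followed with 496 ± 70.4 CPM per kb. Cnp, an enzyme of the cytoplasmic channels, had 217 ± 34.4 CPM per kb, and Cldn11, the claudin of the tight junctions between lamellae, had 174 ± 22.7. Each of these 4 genes was above the next in all 18 rats, and Cldn11 was above Opalin in all 18. Opalin, a transmembrane protein of mature oligodendrocytes in the central nervous system, had 98.6 ± 25.6 CPM per kb. Ermn, an actin-binding protein of late oligodendrocytes, had 92.6 ± 12.5, and Mag, an adhesion molecule of the membrane facing the axon, had 92.0 ± 11.0. The order of these 3 was not fixed, since Opalin was above Ermn in 10 and Ermn above Mag in 9 of the 18 rats. Mog, an immunoglobulin-like protein of the outermost lamella, had 45.2 ± 6.73 CPM per kb and was below Mag in all 18 rats. Ugt8, the enzyme that makes galactosylceramide, had the lowest level, 39.7 ± 6.86, and was below Mog in 14 rats.

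The genes lay on 7 chromosomes of assembly Rnor_6.0, to which the reads were aligned. Mbp lay on chromosome 18 between 79326738 and 79437310, Mobp on chromosome 8 between 128824420 and 128854492, and Mog on chromosome 20 between 2003871 and 2014284. Mag (89345325 to 89360905) and Opalin (260324028 to 260341677) were both on chromosome 1. Cldn11 (115823541 to 115836846) and Ugt8 (229644373 to 229718678) were both on chromosome 2, Cnp was on chromosome 10 (88490798 to 88497357) and Ermn on chromosome 3 (44080350 to 44086006). Counts were of the merged exons, untranslated parts included. Exons of Mog shared 108 bases with Zfp57 and exons of Mag 123 bases with LOC108349549, both on the opposite strand, and the counting used strand.

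**Figure D1:**
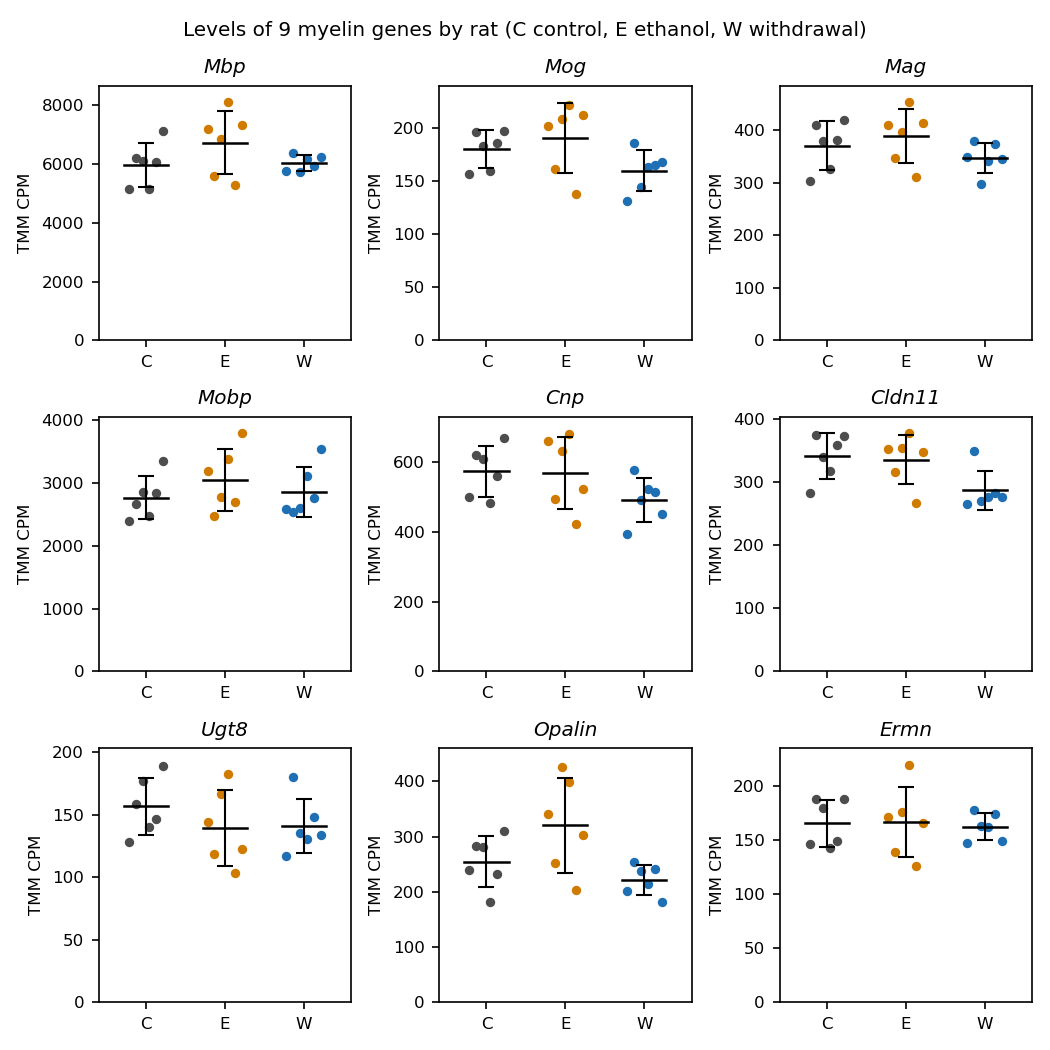
Level of each of the 9 myelin genes in each rat, as TMM-normalised CPM on a linear axis that starts at 0, for control (C), ethanol (E) and withdrawal (W) rats. Points are single rats, long bars the means and error bars the SD of 6 rats, and the 3 groups overlap for every gene.

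The levels were first compared for the proteins of compact myelin. Mbp ranged from 5143 to 7113 CPM in control rats (median 6083), from 5295 to 8101 in ethanol rats (median 7031), and from 5727 to 6395 in withdrawal rats (median 6050). The groups overlapped, and the withdrawal rats lay closest together, with an SD of 271 CPM against 739 in control and 1078 in ethanol rats. Mobp ranged from 2402 to 3358 CPM in control (median 2754), from 2470 to 3789 in ethanol (median 2988) and from 2533 to 3548 in withdrawal rats (median 2675). The highest withdrawal rat for Mobp was withdrawal rat 6, and withdrawal rat 2, the highest of its group for each of the other 8 genes, was the lowest. Cldn11 ranged from 283 to 375 CPM in control (median 350), from 267 to 378 in ethanol (median 351) and from 265 to 350 in withdrawal rats (median 277). Withdrawal rat 2 stood apart here, at 350 CPM, while the other 5 withdrawal rats had 283 CPM or less.

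Among the proteins of the outer and inner membranes and the cytoplasmic channels, Mog had medians of 184 CPM in control (156 to 197), 205 in ethanol (138 to 221) and 164 in withdrawal rats (132 to 186). Mag had medians of 380 CPM in control (303 to 420), 403 in ethanol (311 to 453) and 347 in withdrawal rats (297 to 378). For both genes all 6 withdrawal rats were below the median of the ethanol rats, as they were for Mbp, Cnp, Cldn11 and Opalin. For Mag, Cnp and Opalin all 6 were also below the control median. These genes varied together from rat to rat, so they are not separate observations, and the share of all genes with such an order was not counted. Cnp had medians of 583 CPM in control (483 to 670), 577 in ethanol (421 to 680) and 503 in withdrawal rats (393 to 577). The ranges of Cnp overlapped, with the lowest rat of all in the withdrawal group.

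Ugt8, the galactolipid enzyme, had medians of 152 CPM in control (128 to 189), 133 in ethanol (103 to 182) and 134 in withdrawal rats (117 to 180). Opalin had the widest spread of the 9 genes, with a median of 260 CPM in control (182 to 310), 321 in ethanol (203 to 426) and 226 in withdrawal rats (181 to 253). Ermn had nearly equal medians, 164 CPM in control (143 to 188), 169 in ethanol (126 to 219) and 163 in withdrawal rats (147 to 177). Within the ethanol group the spread was shared: ethanol rat 5 was lowest for every gene but Mobp, and ethanol rat 4 was highest for every gene but Mobp and Opalin. None of the 9 genes had groups without overlap in any comparison, while 1.06% of all genes tested did for withdrawal against control, 1.32% for ethanol against control and 1.22% for withdrawal against ethanol.

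The question of the comparison between withdrawal and control rats was which genes had changed a day after ethanol was removed. None of the 9 myelin genes passed q < 0.1 in limma-voom with 3 surrogate variables (unnamed sources of variation estimated from the data), where 5.41% of all genes tested passed. At an unadjusted p under 0.05 there were 2 of the 9, Cldn11 and Cnp, against 19.7% of all genes. edgeR's quasi-likelihood test called 0 of the 9 and DESeq2 called 1, Cldn11 (q = 0.0574). Of the 17853 genes tested, these methods called 1030 and 1624. Cldn11 had the smallest p of the 9, with a log2 fold change of -0.24 (SE 0.082, 95% interval -0.42 to -0.07) and q = 0.119 in limma-voom. Cnp had a log2 fold change of -0.24 (SE 0.097, interval -0.45 to -0.04) and q = 0.180. These log2 fold changes were equal to 0.844 and 0.846 times the control level. In a two-sided exact permutation test on log2 CPM, Cldn11 had p = 0.0281 and Cnp p = 0.0693, and no other of the 9 genes was below 0.05 in this comparison. In limma-voom Cldn11 passed when control rat 1 (q = 0.0754), ethanol rat 5 (q = 0.0896) or withdrawal rat 2 (q = 0.0299) was left out, and Cnp when withdrawal rat 2 was left out (q = 0.0780). Without withdrawal rat 2 the calls over all genes rose from 965 to 1911. Both genes also passed with replicate number added to the model (Cldn11 q = 0.0791, Cnp q = 0.0871), where 941 genes were called. In bulk tissue, fewer oligodendrocytes and less of an RNA per oligodendrocyte cannot be told apart.

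The other 7 genes had 95% intervals that spanned 0 between withdrawal and control. The log2 fold change was -0.22 for Opalin (interval -0.52 to 0.08), -0.17 for Mog (-0.36 to 0.03) and -0.16 for Ugt8 (-0.41 to 0.09). It was -0.10 for Mag (-0.26 to 0.07) and -0.04 for Ermn (-0.24 to 0.16). Mbp and Mobp had values above 0, with 0.04 (-0.13 to 0.20) and 0.07 (-0.12 to 0.26). Thus 7 of 9 estimates were below 0, with a median of -0.16, and 49.9% of all genes tested were below 0. The 9 genes vary together over the same rats, so their signs are not 9 separate observations.

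**Figure D2:**
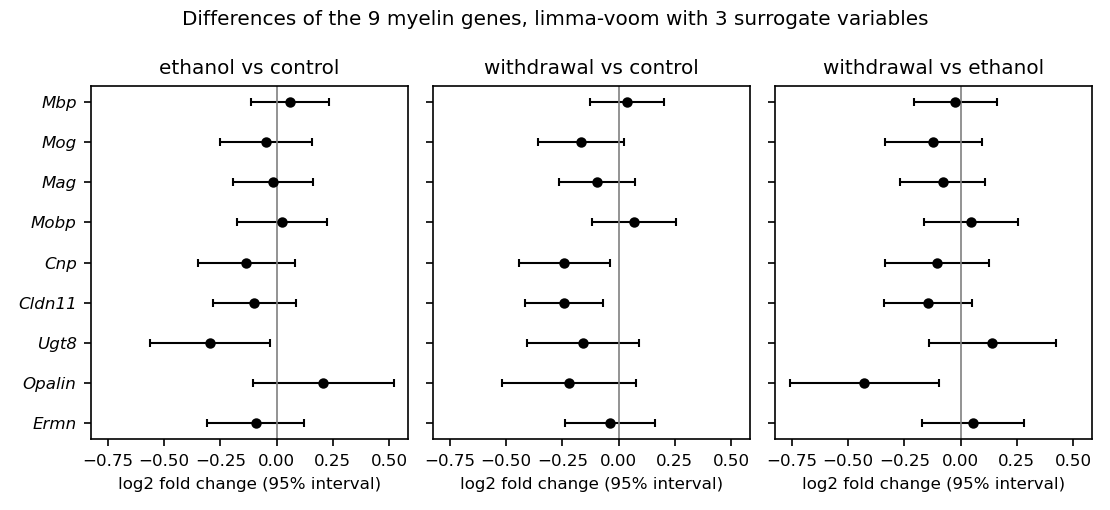
Fitted log2 fold change of each myelin gene (points) with its 95% interval (bars) in the 3 comparisons, from limma-voom with 3 surrogate variables and 18 rats. Intervals exclude 0 for Ugt8 between ethanol and control, for Cnp and Cldn11 between withdrawal and control, and for Opalin between withdrawal and ethanol, and none of these 4 values passed q < 0.1.

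Between ethanol and control rats, which addressed the effect of the diet while it lasted, 0 of the 9 genes passed q < 0.1 in limma-voom, against 0.493% of all genes tested. Neither edgeR's quasi-likelihood test nor DESeq2 called any, and 1 gene, Ugt8, was under an unadjusted p of 0.05, against 12.5% of all genes. Ugt8 had a log2 fold change of -0.30 (SE 0.13, interval -0.56 to -0.03) and q = 0.338 in limma-voom. Opalin lay on the other side, at 0.21 (interval -0.11 to 0.52). The remaining 7 were between -0.14 (Cnp) and 0.06 (Mbp). The median of the 9 was -0.05 with surrogate variables and 0.07 without them, so that its sign depended on the model. In the exact permutation test on log2 CPM the smallest p of the 9 was 0.162, for Opalin.

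Between withdrawal and ethanol rats, which differ by the last day, 0 of the 9 passed q < 0.1 in limma-voom, against 2.72% of all genes tested. edgeR's quasi-likelihood test and DESeq2, both with the surrogate variables, called none, and 1 of the 9, Opalin, was under an unadjusted p of 0.05, against 16.7% of all genes. Opalin was at 222 ± 27.2 CPM in withdrawal and 320 ± 85.4 CPM in ethanol rats (SD, n = 6 each). Its log2 fold change was -0.43 (SE 0.16, interval -0.76 to -0.09) with q = 0.181 in limma-voom, or 0.743 times the ethanol level. The exact permutation test on log2 CPM gave p = 0.0260 for Opalin. Its q was 0.0967 in edgeR's quasi-likelihood test without surrogate variables and 0.0477 in limma-voom when ethanol rat 5 was left out. Over all genes these fits called 682 and 1800, against 486 in the main fit. Withdrawal rats 1 and 2, with 202 and 253 CPM of Opalin, the latter the highest of the group, shared a set of library index sequences with the ethanol rats. The mean difference in log2 CPM within that set, -0.46, rests on these 2 rats, and the part of the index set in the result was not tested. The other 8 genes were between -0.15 (Cldn11) and 0.14 (Ugt8). Over the 9 genes the median was -0.08, and -0.16 without surrogate variables.

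The 9 genes moved together from rat to rat within the groups. After log2 CPM was centred on the mean of each group, the 36 pairs of genes had Pearson correlations between 0.25 and 0.91 over 18 rats, with a median of 0.82. Without the highest and the lowest rat (ethanol rats 4 and 5) the median was 0.73 and the range from 0.10 to 0.87. In both cases the 2 values of a rat share its library and its depth. Cnp and Ugt8 were the closest pair (0.91). Mobp was set apart from the others: it had 0.75 with Mbp but 0.29 with Ugt8 and 0.25 with Opalin, the 2 lowest values of all pairs. Taken as the mean of the 9 standardised and group-centred genes, ethanol rat 4 stood at 1.44 and ethanol rat 5 at -1.89, in units of SD from the mean of its group. The SD of log2 CPM within groups was between 0.16 (Cldn11) and 0.30 (Opalin), against a median of 0.18 over all genes tested. The 3 surrogate variables carried between 22.98% (Cldn11) and 41.6% (Mbp) of this variance, against a median of 43.2% over all genes. Even unrelated variables would carry a part of it, and that part was not estimated.

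**Figure D3:**
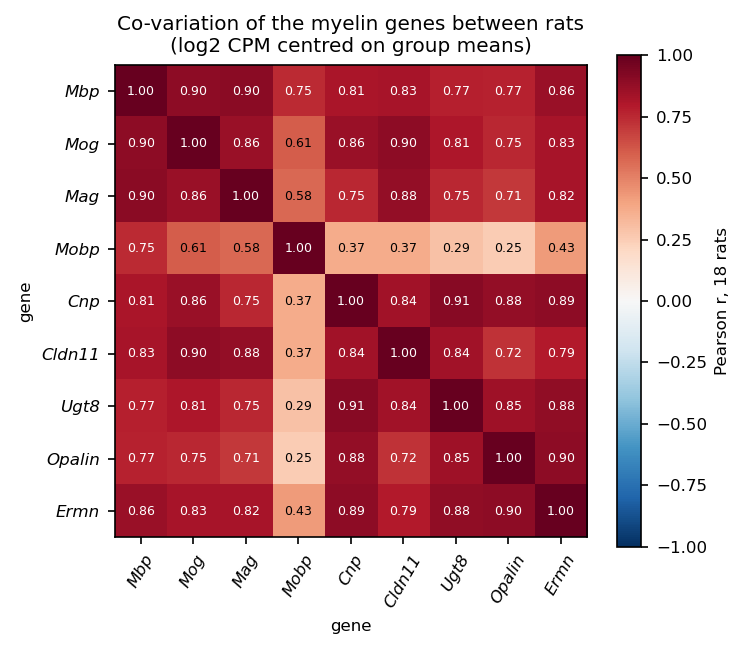
Pearson correlation of log2 CPM between each pair of myelin genes over 18 rats, each gene centred on its group means, on a colour scale from -1 to 1. Correlations run from 0.25 (Mobp with Opalin) to 0.91 (Cnp with Ugt8), and the row of Mobp is the palest.

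Among the genes most alike to the mean of the 9 in this way, as a description over the same 18 rats, were Tmem88b (r = 0.97), Fa2h (0.96), Cfap20dc (0.94), Prr18 (0.94), Piga (0.94), Ttyh2 (0.94), Zdhhc9 (0.93), Plekhh1 (0.93) and Carhsp1 (0.93). Fa2h makes the hydroxylated fatty acids of myelin galactolipids and was the only one of these 9 on the lists of myelin genes used below. Of the 17844 other genes, 92 had an r above 0.8. Marker lists were set beside the 9 genes by the mean of their own standardised and group-centred log2 CPM, in which each gene of a list has the same weight. The list of 26 further myelin and oligodendrocyte genes had r = 0.96, the 10 oligodendrocyte transcription factors 0.94 and the 6 lipid enzymes 0.92. Without ethanol rats 4 and 5 these were 0.93, 0.90 and 0.87. Precursor genes had 0.75 (0.59 without those rats) and genes of axon-glia contact 0.67 (0.56). Neuronal markers had -0.51 (-0.29), thalamic markers 0.52 (0.29), astrocyte markers -0.31 (-0.37) and choroid plexus markers 0.13 (0.044). The sign changed without those rats for vascular markers (0.22 and -0.17), Schwann cell markers (0.12 and -0.13) and microglial markers (0.06 and -0.10). Taken instead from the log2 of the summed CPM, in which abundant genes weigh most, r was 0.65 for the 26 genes (0.49 without those rats), 0.83 for the transcription factors (0.74), 0.93 for the lipid enzymes (0.88), 0.81 for the precursor genes (0.72) and 0.52 for the genes of axon-glia contact (0.40).

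Ratios between the 9 genes within a rat cancel the total of a library, and they were compared as a description. Of 36 pairs, 2 had ratios that did not overlap for withdrawal against control, 3 for ethanol against control and 2 for withdrawal against ethanol. The log2 ratio of Mbp to Cnp was 3.32 to 3.44 in control rats, 3.44 to 3.81 in ethanol rats and 3.47 to 3.88 in withdrawal rats. Every rat that had received ethanol was above every control rat, although the closest ethanol and control rats nearly met. Cnp was also low against Ermn in withdrawal, with 1.42 to 1.70 against 1.72 to 1.91 in control rats. The log2 ratio of Cnp to Opalin was 0.57 to 1.06 in ethanol rats and 1.06 to 1.41 in control rats. There the mean of Cnp was 568 CPM in ethanol and 574 in control rats, and that of Opalin 320 and 255. Of the 17844 genes other than the 9, 0.594% had a ratio to Cnp without overlap for withdrawal against control and 0.275% for ethanol against control, where 0.263% had such a ratio to Opalin. Only 92 of those genes had an r above 0.8 with the mean of the 9, so most do not move with them as the 9 do. These shares, here and below, are therefore no expected count for the 36 pairs.

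Of the 8 ratios with Opalin, only that with Ugt8 kept the ethanol rats apart from both other groups. The log2 ratio of Ugt8 to Opalin was -1.36 to -0.98 in ethanol rats, -0.90 to -0.38 in control rats and -0.81 to -0.44 in withdrawal rats. The ethanol rats lay below both other groups, which overlapped with each other. The log2 ratio of Opalin to Ermn was 0.68 to 1.28 in ethanol rats, 0.35 to 0.72 in control rats and 0.28 to 0.54 in withdrawal rats, so that the ethanol rats overlapped with control but not with withdrawal rats. The ratios of Mbp, Mog, Mag, Mobp and Cldn11 to Opalin overlapped in all comparisons. Between withdrawal and ethanol, 1.01% of the genes other than the 9 had a ratio to Opalin without overlap, and 0.252% had such a ratio to Ugt8 (0.493% between ethanol and control). The index set of the control rats was used for no other rat, so that index set and diet cannot be told apart in any comparison with the control rats, those of the wider lists included.

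**Figure D4:**
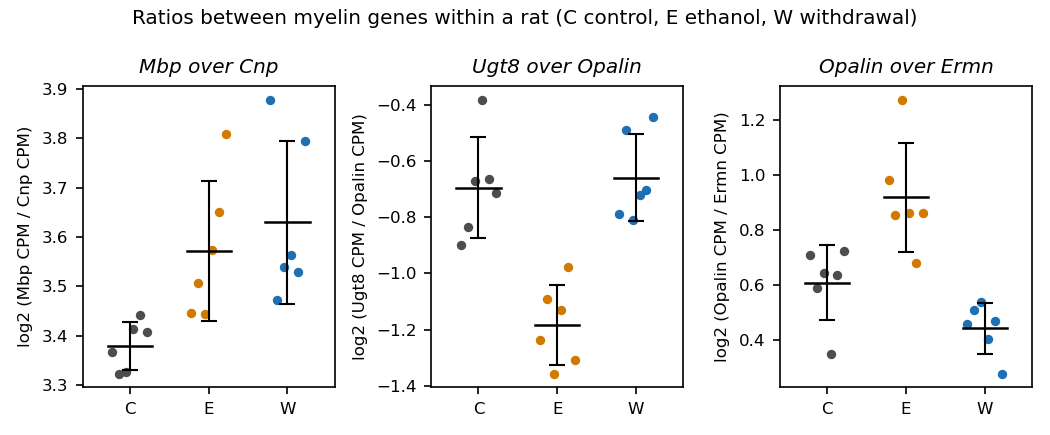
Log2 ratios of Mbp to Cnp, Ugt8 to Opalin, and Opalin to Ermn within each rat, for control (C), ethanol (E) and withdrawal (W) rats, with means and SD of 6 rats. Mbp to Cnp is lowest in control rats (3.32 to 3.44), and Ugt8 to Opalin is lowest in ethanol rats (-1.36 to -0.98).

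The wider lists put the 9 genes in their setting. They held 67 further genes of myelin structure, its lipids, oligodendrocyte transcription factors, precursor and newly formed oligodendrocytes, and axon-glia contact, of which 66 were tested (Neu4 had no counts). In limma-voom with q < 0.1, 3 rose and 1 fell in withdrawal against control, 1 rose in ethanol against control, and 1 rose and 1 fell in withdrawal against ethanol. Of all genes tested, 2.85% rose and 2.55% fell in the first of these comparisons, 0.336% rose in the second, and 1.23% rose and 1.49% fell in the third. The median log2 fold change of the 66 was -0.03, -0.01 and -0.03 in these comparisons. These calls rested on the model: without surrogate variables none of the 4 calls between withdrawal and control passed q < 0.1, and none passed when withdrawal rat 6 was left out.

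Hapln2, a link protein of the matrix at nodes of Ranvier, was the 1 of 26 structural genes called. It ranged from 122 to 148 CPM in control (median 142), from 159 to 230 in ethanol (median 202) and from 144 to 245 in withdrawal rats (median 196). All 6 ethanol rats and 5 of 6 withdrawal rats were above every control rat. The log2 fold change was 0.47 (SE 0.10) in withdrawal, with q = 0.0304 in limma-voom, and 0.41 (SE 0.11) in ethanol against control, with q = 0.134. The exact permutation p for Hapln2 was 0.00866 in withdrawal and 0.00216 in ethanol, the smallest that 6 rats against 6 can give. Without withdrawal rat 6 the value in withdrawal was 0.32 with q = 0.197, and without surrogate variables its q was 0.133.

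Olig2 and Olig1, basic helix-loop-helix factors that specify and maintain the lineage, were the genes called among 10 transcription factors. Olig2 ranged from 32.7 to 40.3 CPM in control (median 38.1), from 31.98 to 51.1 in ethanol (median 41.3) and from 41.4 to 50.4 in withdrawal rats (median 45.4). All 6 withdrawal rats were above all 6 control rats, with a log2 fold change of 0.28 (SE 0.058) and q = 0.0240 in limma-voom. Against ethanol rats Olig2 was at 0.31 (SE 0.065) with q = 0.0472, although the groups overlapped and the exact permutation p on log2 CPM was 0.132. Its q between withdrawal and control was 0.114 without withdrawal rat 6 and 0.240 without surrogate variables. Between withdrawal and ethanol the q of Olig2 was 0.230 without ethanol rat 2, 0.108 without ethanol rat 3, 0.267 without withdrawal rat 6 and 0.278 without surrogate variables. Of 12 other settings, 7 kept this call and 10 kept that between withdrawal and control. Settings that lost the call against ethanol rats included 2 surrogate variables, a replicate block and only the groups compared.

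Olig1 ranged from 105.7 to 119 CPM in control (median 117), from 122 to 149 in ethanol (median 142) and from 117 to 134 in withdrawal rats (median 125). All 6 ethanol rats were above all 6 control rats, with a log2 fold change of 0.22 (SE 0.045) and q = 0.0809 in limma-voom. The call of Olig1 was kept in 9 of 18 fits that each left out 1 rat, with q between 0.108 and 0.218 in the others. Those were the fits without control rats 1, 2, 3, 4 or 6, ethanol rats 3 or 6, or withdrawal rats 3 or 6. Of 12 other settings, 8 kept the call of Olig1. Those that lost it included no filter on low counts, a replicate block and 20 iterations of the surrogate variable estimate.

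Of the genes of precursor and newly formed oligodendrocytes, 13 were tested and 2 were called. Gpr17, a receptor that marks the newly formed stage, ranged from 34.8 to 42.0 CPM in control (median 39.0), from 26.04 to 41.6 in ethanol (median 29.6) and from 20.4 to 34.5 in withdrawal rats (median 28.6). All 6 withdrawal rats were below all 6 control rats, with a log2 fold change of -0.44 (SE 0.12) and q = 0.0675 in limma-voom. The q of Gpr17 was between 0.108 and 0.310 without control rats 1, 2, 3 or 6 or withdrawal rats 1 or 6, and 0.150 without surrogate variables. In ethanol against control, Gpr17 had a log2 fold change of -0.38 with q = 0.234. Pdgfra, the growth factor receptor of precursors, had medians of 91.8 CPM in control (89.2 to 105), 107 in ethanol (96.0 to 125) and 99.7 in withdrawal rats (79.3 to 121). Its log2 fold change between withdrawal and control was 0.14 (SE 0.043) with q = 0.0863 in limma-voom, but 0.07 with q = 0.807 without surrogate variables, and the exact permutation p was 0.485. The q of Pdgfra was above 0.1 in 10 of 18 fits that left out 1 rat, those without any 1 control rat, ethanol rat 5, or withdrawal rats 2, 3 or 6, where it was between 0.105 and 0.219.

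Among 11 genes of axon-glia contact, Rtn4r, the neuronal receptor for inhibitors carried by myelin, was the 1 called. It was at 49.4 ± 5.80 CPM in control, 58.0 ± 6.67 in ethanol and 49.4 ± 9.58 in withdrawal rats (SD, n = 6 each), and the groups overlapped. Its log2 fold change in withdrawal against ethanol was -0.27 (limma-voom, interval -0.42 to -0.11, q = 0.0916). Leaving out any 1 control rat, ethanol rats 2 or 3, or withdrawal rats 1, 3 or 6 moved the q of Rtn4r to between 0.101 and 0.358, and without surrogate variables it was 0.287. The exact permutation p on log2 CPM was 0.106 in that comparison and 0.0411 in ethanol against control, where Rtn4r was 0.23 higher. It was not called there in the main fit, but passed q < 0.1 in 3 of 12 other settings and in 6 of 18 fits that left out 1 rat. None of the 6 lipid enzymes was called in any comparison by limma-voom, and 1 of the 6 was under an unadjusted p of 0.05 between withdrawal and control, against 19.7% of all genes. Gal3st1, which adds the sulfate of sulfatide, had a log2 fold change of -0.33 (limma-voom q = 0.162) in that comparison, with medians of 10.9 CPM in control (8.39 to 13.4) and 8.03 in withdrawal rats (7.49 to 11.1) and ranges that overlapped. Elovl7, an elongase of long fatty acids, was at 0.14 (limma-voom q = 0.256), and at -0.02 without surrogate variables.

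**Figure D5:**
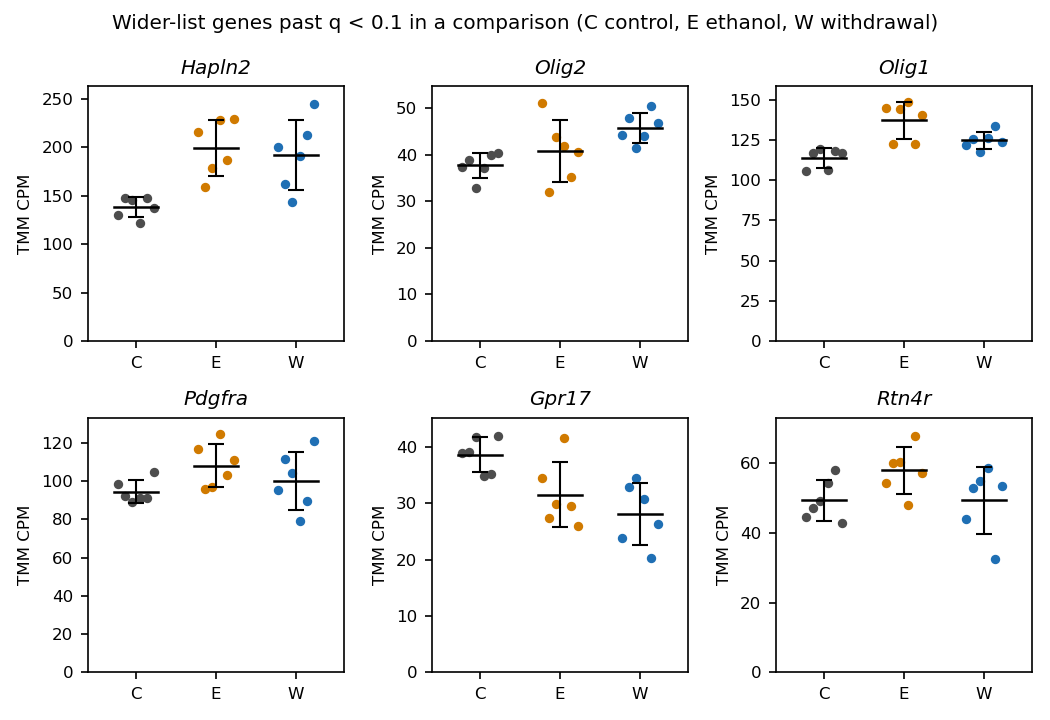
Levels of the 6 genes of the wider myelin and oligodendrocyte lists past q < 0.1 in at least 1 comparison, as TMM-normalised CPM on axes that start at 0, for control (C), ethanol (E) and withdrawal (W) rats, with means and SD of 6 rats. Hapln2 and Olig1 in ethanol and Olig2 in withdrawal rats lie above all control rats, and Gpr17 in withdrawal rats lies below them.

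Markers of other cells varied between the libraries as well. The summed level of 7 choroid plexus and ependymal markers was 1084 to 2248 CPM in control, 1419 to 5291 in ethanol and 40.6 to 5292 in withdrawal rats, and that of 8 thalamic markers was 252 to 712, 193 to 1377 and 197 to 551 CPM. The 9 myelin genes together were at 9323 to 12820 CPM in control, 9559 to 14020 in ethanol and 9962 to 11493 in withdrawal rats. The 4 Schwann cell markers, which would show myelin of peripheral nerve, summed to between 5.50 and 17.1 CPM. In limma-voom (q < 0.1, passed by 5.41% of all genes), 1 of 10 neuronal markers fell in withdrawal against control, 1 of 8 astrocyte markers rose and 2 fell, 1 of 8 microglial, 3 of 6 vascular and 1 of 7 choroid plexus and ependymal markers rose, and no thalamic or Schwann cell marker was called. The vascular marker Ly6c had no counts. The part of these cells in the values of the myelin genes was not tested.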

How the data were processed

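The authors aligned reads with STAR 2.5.2a to Rnor_6.0 with the annotation of NCBI and deposited, for each rat, raw counts of read pairs on the exons of each gene (featureCounts 1.5.0, strand-specific, without normalization). Gene identifiers were named from the RefSeq gene table of assembly GRCr8, which named 29322 of 38445. Groups and replicate numbers came from the sample labels. No same-group pair of libraries agreed within sampling noise (chi-square per degree of freedom at least 5.74 in 45 pairs). Nothing in the labels says more than that replicates are separate rats.

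Counts were TMM-normalised with edgeR 4.0.16, and the 17853 genes above 0.5 CPM in at least 1 rat entered 1 model of all 18 rats (limma 3.58.1 voom, R 4.3.3) with 3 surrogate variables from sva 3.50.0 with 5 iterations. The number of surrogate variables and of rats in the filter are not given in the sources used here. Two-sided p-values were adjusted over all genes tested within each comparison by Benjamini-Hochberg (q), with a threshold of 0.1. Log2 CPM used a prior count of 2. Exact permutation tests ran over all 924 splits. The script was tested on simulated data. Alternatives were edgeR's quasi-likelihood test, DESeq2 1.42.0, 0, 2 or 4 surrogate variables, RLE scaling, other filters, fits of only the groups compared, a replicate block, q < 0.05 and leaving out each rat, and, added after the data were seen, 20 sva iterations and summed CPM for the correlations of lists. Plots and sums used Python 3.11.15, pandas 2.3.3, numpy 2.4.6, scipy 1.17.1 and matplotlib 3.10.9.

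The 9 genes and all lists were chosen with earlier results of these data known. The text names the 9 genes in full. From each wider list it names the genes called in any comparison or, where none was, the 2 of smallest p between withdrawal and control, and it names the 10 genes most correlated with the mean of the 9, of which 1 is not reported here. Lists of other cell types are given by counts and sums. With at least 3597 counts per rat for each of the 9 genes, counting error is small beside the spread between rats. The index sequences of the libraries fell into 3 sets: all 6 control rats had the first, all 6 ethanol rats and 2 withdrawal rats the second, and 4 withdrawal rats the third.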

Additional observations from a re-analysis of the deposited data

Results flagged for a closer look

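The level of Cldn11 in withdrawal rats was flagged because 1 rat lay far from the others. Withdrawal rat 2 had 350 CPM, and the other 5 had between 265 and 283 CPM. Its gap to the nearest rat was 0.791 of the range of the group, above Dixon's critical value for 6 samples. It was the 1 flag among 27 groups (9 genes in 3 groups), and chance flags about 5% of groups. Its cause was not tested.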

How the results depend on the processing

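Over 30 other fits of each comparison, 767 of 810 log2 fold changes of the 9 genes kept their sign and their side of q < 0.1, 34 changed sign and 9 newly passed. The number of the 9 called between withdrawal and control was 0 apart from DESeq2 (1, Cldn11) and the replicate block (2), and 0 to 2 when a rat was left out (2 without withdrawal rat 2, and 1, Cldn11, without control rat 1 or ethanol rat 5). In ethanol against control it was 0 throughout, and in withdrawal against ethanol 0 apart from edgeR's quasi-likelihood test without surrogate variables (1, Opalin), and 0 to 1 when a rat was left out (1 without ethanol rat 5).

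Over all genes tested, the calls in withdrawal against control went from 965 to 41 without surrogate variables, 594 with 2 of them, 33 in the quasi-likelihood test without them, 1624 in DESeq2, 486 with no filter and 370 at q < 0.05. In ethanol against control they went from 88 to 50 without surrogate variables, 221 with 4, 473 in DESeq2, 9 with no filter, 28 with only the groups compared, 14 with 20 sva iterations and 10 at q < 0.05. In withdrawal against ethanol they went from 486 to 260 with 2 surrogate variables, 896 with 4, 1176 in DESeq2, 166 with no filter, 0 with only the groups compared and 112 at q < 0.05. Leaving out 1 rat gave 23 (withdrawal rat 6) to 1911 (withdrawal rat 2) in the first comparison, 0 to 258 in the second and 0 to 1800 in the third, the last 2 highest without ethanol rat 5 and lowest (0) without control rat 4 in the second and without ethanol rats 2 or 3 or withdrawal rat 6 in the third.

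Of the 66 wider genes, the 4 called in withdrawal against control became 0 without surrogate variables in limma-voom and in the quasi-likelihood test, 9 in DESeq2, 2 with no filter, 7 with only the groups compared, 2 at q < 0.05, and 0 to 9 when a rat was left out. The 1 called in ethanol against control became 3 without surrogate variables in limma-voom and in the quasi-likelihood test, 3 with 4 of them, 2 in the quasi-likelihood test with 3 of them, 4 in DESeq2, 0 with no filter, 2 with 0.5 CPM asked of 6 rats, 0 with 20 sva iterations, 0 at q < 0.05, and 0 to 4 when a rat was left out. The 2 called in withdrawal against ethanol became 0 with 2 surrogate variables, 4 with 4, 6 in DESeq2, 1 with no filter, 0 with only the groups compared, 1 at q < 0.05, and 0 to 8 when a rat was left out. The cause of these shifts was not tested.

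Changes of sign were all of estimates near 0. In ethanol against control, Mog was 0.069 and Mag 0.069 without surrogate variables, 0.082 and 0.070 in the quasi-likelihood test without them, Mag 0.0081 with 2 of them and 0.0099 with only the groups compared, Mobp -0.0033 with 20 sva iterations and Ermn 0.0075 in the quasi-likelihood test without surrogate variables. In withdrawal against ethanol, without surrogate variables, Mobp was -0.093 in limma-voom and -0.097 in the quasi-likelihood test, and Ermn -0.018 and -0.037. With 1 rat left out, withdrawal against control ran from -0.014 to 0.068 for Mbp, -0.021 to 0.13 for Mobp and -0.081 to 0.013 for Ermn. Ethanol against control ran from -0.11 to 0.081 for Mog, -0.073 to 0.049 for Mag and -0.033 to 0.089 for Mobp. Withdrawal against ethanol ran from -0.10 to 0.016 for Mbp, -0.069 to 0.12 for Mobp and -0.031 to 0.13 for Ermn.

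Deviations of same-numbered rats correlated between -0.32 and 0.38 in 18 pairs, above 0.1 in 4. Of 18 rats, 5 correlated best with their own number. The labels do not say whether the numbers follow the pair feeding, and these correlations cannot decide it. With the replicate block, 941 of the 17853 genes tested were called in withdrawal against control, 33 in ethanol against control and 1 in withdrawal against ethanol. In the block, 2 of the 9 genes passed in withdrawal against control (Cnp q = 0.0871 and Cldn11 q = 0.0791, limma-voom), Mobp was at -0.032 in withdrawal against ethanol, and the wider genes called were 0 in ethanol against control and 0 in withdrawal against ethanol.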
